A study of Mus musculus with 4 samples.

Results

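Invariant NKT-like cells of the mouse liver were taken from single-cell RNA libraries of 4 livers by the UMIs of 15 genes, a UMI being 1 counted RNA molecule. They were thus selected on measured values of those genes. A barcode was kept with at least 500 genes and at most 20% mitochondrial UMIs, and a kept cell was a member when it held at least 2 UMIs of the CD3 genes Cd3d, Cd3e and Cd3g, at least 1 of Zbtb16 and at least 1 of the effector genes Il4, Klrb1c, Cd160 and Xcl1, and none of Cd8b1, Foxp3, Il23r, Cd163l1, Il17a, Cd79a and Cd79b. The rule found 2420 cells among 31290 kept cells and 8687 T cells, a T cell being a cell that passed the CD3 and Cd79 conditions. Of these, 229 came from the NCD liver, 217 and 193 from HFD replicates 1 and 2, and 1781 from the JQF liver, so 1 library held most of the members. No member barcode was shared between libraries, while 12 to 27 kept barcodes were shared per pair of libraries.

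The livers came from male C57BL/6J mice bought at 5 weeks of age. NCD was the control diet with distilled water by gavage (1 library). HFD was a high-fat diet, given for 14 weeks before an 8-week gavage of distilled water (2 libraries). JQF was the same high-fat diet with the herbal formula JQF by gavage for those 8 weeks (1 library), so the HFD and JQF livers shared the diet and differed in the gavage. NCD and JQF were each 1 library, and tests between groups took the spread between the HFD pair as the spread of every group. Nothing in the labels said that more than 1 animal went into a library.

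Invariant NKT cells are T cells whose receptor joins 1 fixed alpha chain, made from the Trav11 and Traj18 segments in mice, to a few beta chains, and which recognise glycolipids on the MHC-like molecule CD1d. The transcription factor PLZF, encoded by Zbtb16, gives them an innate-like program, and they release IL-4 and interferon-gamma within hours of receptor engagement. In the mouse liver they patrol the sinusoids, where the chemokine receptor CXCR6 keeps them, and they are divided into NKT1, NKT2 and NKT17 cells, of which T-bet marks the first and high GATA3 the second.

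The fixed receptor chain was not used by the rule and served to check the name of the cells. Its 2 germline parts are shown because they carry the identity of these cells. Both lie on the plus strand of the alpha chain locus in the GRCm38 (mm10) genome with GENCODE M21 gene models, and both are coding exons. The V exon of Trav11 is at chr14:53519569-53519859, and the Traj18 exon is at chr14:54200777-54200842. Capitals mark the parts that are joined to form the CDR3 loop, which runs in Trav11 from the cysteine codon to the end of the exon and in Traj18 from its start through the phenylalanine codon. Bases at the joint can be trimmed in a mature chain.
Trav11: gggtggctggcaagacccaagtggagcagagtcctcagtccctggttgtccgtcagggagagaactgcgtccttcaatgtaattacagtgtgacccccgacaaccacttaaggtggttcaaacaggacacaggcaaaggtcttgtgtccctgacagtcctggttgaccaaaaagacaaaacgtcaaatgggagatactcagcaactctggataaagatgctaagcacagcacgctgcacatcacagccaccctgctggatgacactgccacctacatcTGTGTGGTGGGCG
Traj18: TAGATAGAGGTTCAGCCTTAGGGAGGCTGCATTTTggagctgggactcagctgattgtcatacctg
The V exon of Trav11d, a second copy at chr14:52824623-52824912, had 0 differing bases over the 290 compared, and Trav11 had 1 more base at its 3′ end. The bases compared cannot tell the copies apart, and other parts of the 2 genes were not compared. Trav11 had 10 UMIs in the members of NCD, 61 and 28 in those of HFD and 399 in those of JQF. Trav11d had 1 UMI in the members of all 4 libraries together. How reads were assigned to the copies was not tested, so the Trav11 counts are uncertain in that respect.

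Trav11 was more frequent in the members than in T cells with neither Zbtb16 nor effector genes in each library. Members with a Trav11 UMI were 3.93% in NCD (exact 95% binomial interval 1.81 to 7.33%), 15.7% in HFD replicate 1 (11.1 to 21.2%), 9.33% in HFD replicate 2 (5.62 to 14.3%) and 13.6% in JQF (12 to 15.3%). Among T cells with neither Zbtb16 nor effector genes, 0%, 0.789%, 0.333% and 0.256% held one, and no B cell did, which allows a share of up to 1.03% in the smallest of the 4 sets of B cells. The B cells had a median of 5727 to 8723 UMIs and the members 7571 to 10622. T cells that held an effector gene but no Zbtb16 UMI had Trav11 in 0%, 2.62%, 6.14% and 8.98%, and the few with Zbtb16 but no effector UMI in 1 of 20, 2 of 34, 1 of 29 and 7 of 67. Cells with this receptor segment were therefore also found just outside the rule, and in NCD, where 9 of 229 members held it, the members did not stand above the cells with Zbtb16 alone. All such intervals cover counting error only.

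Traj18, examined after its values were seen, gave another order of the libraries. It was found in 25.3% of the NCD members (19.8 to 31.5%), in 9.68% and 9.33% of the HFD members and in 12.7% of the JQF members, and in no B cell. NCD was thus the lowest library for Trav11 and the highest for Traj18, with 10 UMIs of Trav11 against 89 of Traj18 in its members. The share of members with either segment is a detection share in sparse data and not a share of cells with the receptor.

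The genes of the rule were high by choice and are described without a test. Zbtb16 (chr9:48654297-48836222, minus strand, 182 kb) stood at 1495 CPM in NCD (UMIs of a gene scaled to a fixed total of the members' UMIs in a library), 402 and 502 CPM in HFD and 525 CPM in JQF. Il4, the type 2 cytokine, was at 844 CPM in NCD, 276 and 303 CPM in HFD and 278 CPM in JQF. NCD was the high library for both genes. Klrb1c, which encodes the NK1.1 receptor, ranged from 130 to 193 CPM, Cd160, an NK cell receptor, from 87.5 to 151 CPM, and Xcl1, a chemokine for cross-presenting dendritic cells, from 301 to 533 CPM. These 3 genes spread less than Zbtb16 and Il4 did.

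**Figure D1:**
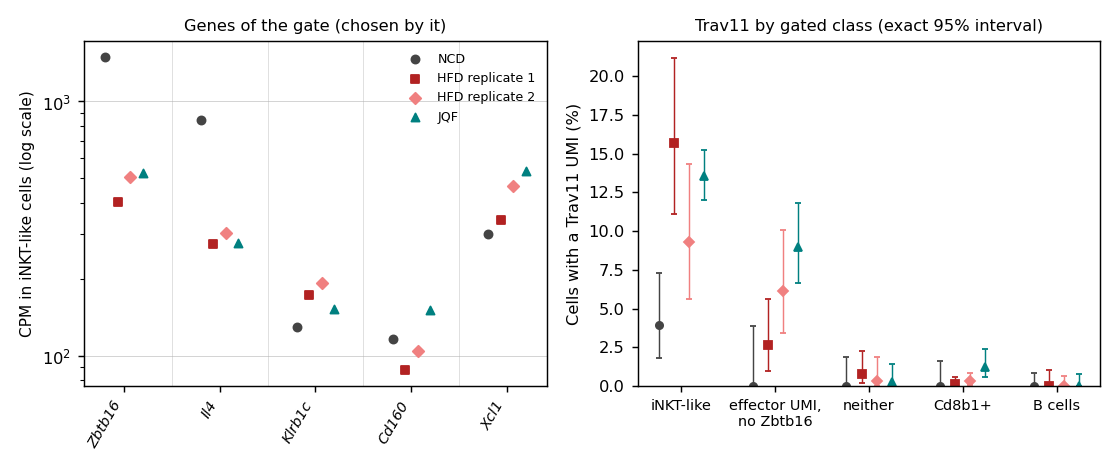
CPM of the 5 genes that chose the cells, by library (left, log axis), and the percentage of cells with a Trav11 UMI in the members and in 4 classes outside the rule, with exact 95% binomial intervals (right). Zbtb16 was at 1495 CPM in NCD and at 402 to 525 CPM in the other libraries, and no B cell held a Trav11 UMI.

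The members mostly carried several effector genes. All 4 were found in 17.5% of the NCD members, 8.29% and 6.22% of the HFD members and 18.0% of the JQF members, and exactly 1 in 17%, 25.3%, 30.1% and 14.9%. Xcl1 was the most frequent in HFD replicate 1 (74.7%), HFD replicate 2 (64.2%) and JQF (75.7%), and in NCD Klrb1c (67.2%), Il4 (65.9%) and Xcl1 (65.5%) were close together. At the edge of the rule, 17 NCD members, 58 and 61 HFD members and 307 JQF members held a single Zbtb16 UMI, while 93, 229, 228 and 512 cells failed for want of it alone. A further 20, 34, 29 and 67 cells had Zbtb16 and no effector UMI. In HFD the cells just outside thus outnumbered the members. RNA outside cells held Zbtb16 at 125 CPM in NCD, 29.8 and 26.4 CPM in HFD and 110 CPM in JQF, so that free Zbtb16 RNA was more plentiful in NCD and JQF, the libraries with the larger shares of members among T cells, and its part in the membership was not tested.

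Il4 and Ifng, which encodes interferon-gamma, were found together in many single cells. After each cell was thinned to 2500 UMIs, both were found in 20.5% of the NCD members, 9.30% and 15.3% of the HFD members and 20.1% of the JQF members, against 51.1%, 28.6%, 35.8% and 50.9% as sequenced. As sequenced, Il4 was found in 65.9%, 49.3%, 58.5% and 62.8% of the members and Ifng in 78.2%, 57.1%, 56.0% and 79.3%. Whether both were found together more often than these shares would give was not tested. Since Il4 is a gene of the rule, these shares are a description.

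The classes the name implies were only in part visible. T-bet (Tbx21) was found in 64.2 to 79.0% of the members of the 4 libraries and GATA3 (Gata3) in 58.5 to 63.1%. The rule removed cells with Il23r, Cd163l1 or Il17a. Cd4 was found in 18.1 to 28.7%. The NK cell factor Eomes was found in at most 2.30%, and the gamma-delta constant gene Trdc in 3.06%, 2.30%, 6.74% and 2.75%. The constant gene Tcrg-C1 of the gamma chain was more frequent, at 22.3 to 32.3% of the members, and 47.6 to 54.4% held a UMI of at least 1 of 6 gamma-delta receptor genes, against 0 to 4.11% of the CD4-like cells described below.

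The labels call the material liver, immune cell and also hematopoietic stem cell. Ptprc, the common leukocyte antigen, was at 1568 to 2105 CPM in the members, and 5 stem cell genes (Kit, Flt3, Mecom, Hlf and Procr) summed to 17.5 to 67.5 CPM. The NCD members held 2858788 UMIs, those of HFD replicates 1 and 2 held 2113135 and 1542388, and the JQF members held 19333716. Scrublet, a doublet caller, marked 16, 19, 23 and 181 of them as the likeliest doublets, and these had a median of 31111, 18263, 14566 and 22437 UMIs against 10421, 8264, 6990.5 and 8072 in the rest. Markers of other cells went with those barcodes: 8 endothelial genes summed to 1887 CPM in NCD, 3.31 and 490 CPM in HFD and 100 CPM in JQF, and without the predicted doublets to 144, 2.94, 19.2 and 30.4 CPM. The 8 dendritic cell genes summed to 68.6, 1447, 1219 and 2523 CPM and then to 27.3, 86.4, 180 and 889 CPM. NCD was the highest of the 4 libraries for the endothelial genes and JQF for the dendritic ones, also after the predicted doublets were removed. The 8 macrophage genes summed to 38.1, 20.8, 686 and 94.8 CPM and then to 8.80, 20.6, 120 and 42.7 CPM, highest in HFD replicate 2 both times. In that library the 8 monocyte and neutrophil genes went from 2067 to 450 CPM. The 8 hepatocyte genes summed to 396, 91.3, 532 and 327 CPM, and without the predicted doublets to 435 CPM in NCD, 39.4 and 145 CPM in HFD and 336 CPM in JQF, so that they then moved with both group comparisons, and the monocyte and neutrophil genes, at 151, 510, 450 and 333 CPM, moved the other way. Cd8a, a CD8 T cell gene that the rule did not use, stood at 42.2 CPM in NCD, 1.76 and 6.69 CPM in HFD and 12.1 CPM in JQF without the predicted doublets, in 9.39% of those NCD members and 1.18 to 2.88% of the others, and so moved with both group comparisons too. The part of these markers in the results below, those on granzymes included, was not tested. B cell genes from 51.1 to 175 CPM, NK cell genes from 46.9 to 84.2 CPM and erythroid genes from 1.89 to 35.7 CPM.

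**Figure D2:**
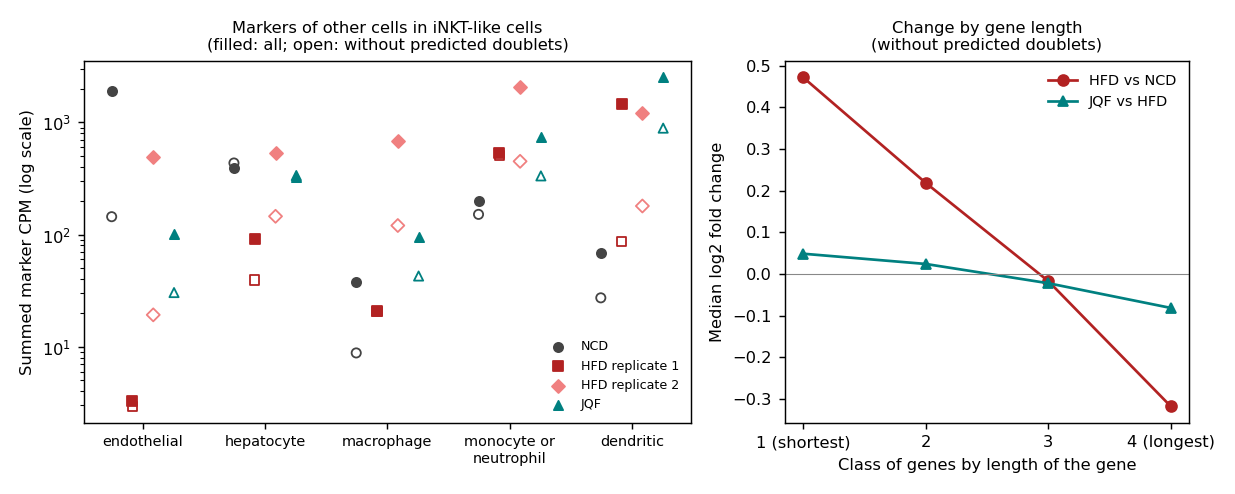
Summed CPM of the markers of 5 other cell types in the members, filled for all members and open without the predicted doublets (left, log axis), and the median log2 fold change of genes in 4 classes of gene length for both comparisons, without the predicted doublets (right). Dendritic cell genes stayed at 889 CPM in JQF after the removal, and the shortest and longest classes differed most for HFD against NCD.

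The first comparison asked how large a part of the T cells the members made in each group. They were 28.3% of T cells in the NCD library (25.2 to 31.5%), 10.7% (9.42 to 12.2%) and 9.06% (7.87 to 10.4%) in the HFD libraries and 47.8% in the JQF library (46.2 to 49.4%). NCD and JQF lay above both HFD libraries with no overlap of the intervals, which cover counting error within a library only. Against HFD the share in JQF was higher by 2.27 on the log2 scale (SE 0.22, adjusted p = 0.0180 by edgeR's quasi-likelihood test over 7 classes of T cells), and that of HFD was lower than that of NCD by a log2 difference of -1.51 (SE 0.24, adjusted p = 0.107), which did not pass. After thinning, the shares were 20.6%, 5.45%, 4.80% and 29.4%, in the same order.

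Over all kept cells the members made up 3.83% in the NCD library, 3.33% and 1.88% in the HFD libraries and 20.9% in the JQF library, or 2.24%, 1.53%, 0.952% and 11.6% after thinning. JQF was the high library here, and NCD stood next to HFD replicate 1. The difference between JQF and HFD was 3.00 (SE 0.86, adjusted p = 0.0719) and that between HFD and NCD -0.56 (SE 0.88, adjusted p = 0.843). Neither passed, and the latter was -1.03 without HFD replicate 1 and -0.20 without HFD replicate 2. Because Zbtb16 itself was lower in HFD, cells with an effector UMI were also counted whether or not they held Zbtb16, a count added after the data were seen. They were 39.8%, 22.1%, 19.8% and 61.6% of T cells, again with both HFD libraries lowest, and 71.1%, 48.7%, 45.8% and 77.7% of them held a Zbtb16 UMI. Over all kept cells, those with an effector UMI were 322 of 5975 in NCD and 446 of 6516 and 421 of 10259 in HFD. In JQF they were 2293 of 8540. NCD thus lay between the HFD libraries there. T cells with Cd8b1, outside those with Foxp3, Il23r, Cd163l1 or Il17a, were 223 of 810 in NCD. In HFD they were 980 of 2021 and 1231 of 2131, and in JQF 718 of 3725. Fewer of these cells, more of other T cells and less Zbtb16 RNA per cell cannot be told apart in the shares of T cells.

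**Figure D3:**
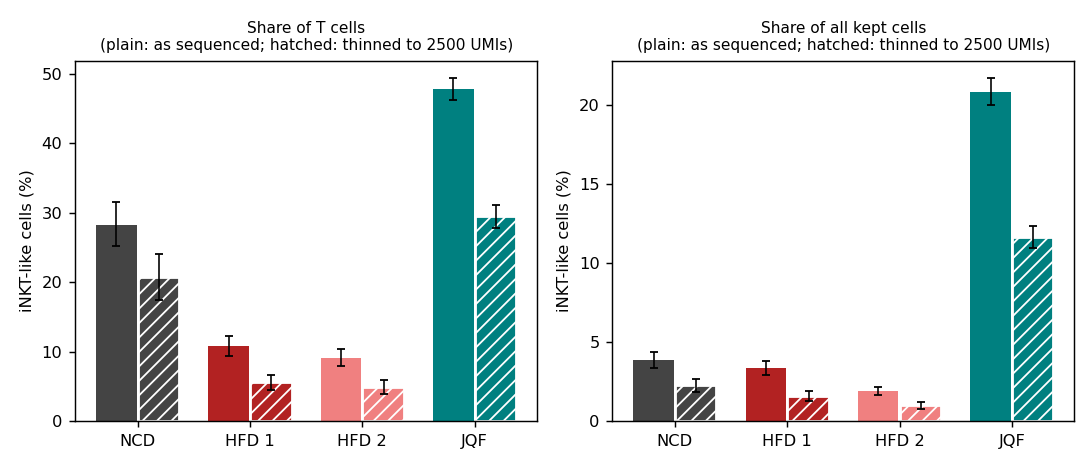
Members as a percentage of T cells (left) and of all kept cells (right) in each library, with exact 95% binomial intervals, as sequenced (plain) and thinned to 2500 UMIs a cell (hatched). In T cells the shares were 28.3%, 10.7%, 9.06% and 47.8%, and over all kept cells JQF alone stood apart, at 20.9%.

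The second comparison asked which genes differed within the members between HFD and NCD. Genes of receptor engagement stood lower in HFD, with Nr4a3 at 3190 CPM in NCD and at 180 and 140 CPM in HFD without the predicted doublets, and interferon-stimulated genes stood higher, with Ifit1 at 24.6 CPM in NCD and at 1429 and 641 CPM in HFD. On the log2 scale both differences are larger than the gap between the HFD libraries. With all members, edgeR called 0 of 11785 genes (0%), although 2732 had an unadjusted p below 0.05, the smallest adjusted p was 0.0726 and DESeq2 called 563. Without the predicted doublets, an alternative to that main fit, it called 705 genes higher in HFD (6.67% of 10569) and 1251 lower (11.8%). Every value from here to the comparison with CD4-like cells is from that alternative unless it is said to be of all members, except that percentages of members with a UMI are of all members, the verbs rose and fell stand for its calls, and the genes shown were chosen after their values were seen. NCD is 1 library, so nothing here separates the diet from that liver.

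Length went along with direction in this comparison. With the tested genes cut into 4 equal classes by length, the median log2 fold change was 0.47 for the shortest class, then 0.22 and -0.02, and -0.32 for the longest, and called genes had a median length of 9.76 kb where higher and 60.2 kb where lower, against 24.7 kb for all tested. Of the 2641 genes of the longest class 69 were called higher and 653 lower, and of the 2641 of the shortest 366 and 97. Whether intronic reads were counted alike in all libraries was not settled by the sources used here, and the part of length in a gene's change was not tested. Below, where the median of a gene list is given, it is also given after the median of each gene's length class was subtracted.

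Genes that T cells switch on after receptor engagement were the clearest group that fell. Of 17 tested, 11 were lower and 1 higher in HFD, with a median log2 fold change of -1.57, or -1.77 with length classes subtracted, against 0.08 for all genes. Receptor engagement itself was not measured. The paper describes a digestion of the liver to free the cells, and the part of such handling in these genes was not tested. Nr4a3 (chr4:48045153-48086447, plus strand), an orphan nuclear receptor induced by receptor signals, stood at 3190 CPM in NCD, 180 and 140 CPM in HFD and 665 CPM in JQF. It fell by 4.49 on the log2 scale in HFD (SE 0.23, adjusted p = 3.16e-08), and with all members its log2 fold change was -4.17 (SE 0.29, adjusted p = 0.0726, with 2.76e-130 to 0.0806 over the alternatives). It was found in 96.1% of the NCD members, 36.9% and 35.8% of the HFD members and 74.8% of the JQF members.

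Its relatives and partners followed the same order. Nr4a2 was at 372, 43.5, 57.7 and 111 CPM in NCD, HFD replicates 1 and 2 and JQF (log2 fold change of HFD against NCD -3.07, adjusted p = 2.45e-07), and Nr4a1, which encodes Nur77, at 625, 142, 232 and 407 CPM (-1.92, adjusted p = 7.29e-05). Egr3, an early growth response factor, was at 43.6, 4.70, 8.36 and 24.3 CPM, and Irf4, a factor whose level follows receptor signal strength, at 84.0, 12.3, 13.4 and 46.5 CPM. The phosphatase gene Dusp5 was at 676, 133, 201 and 332 CPM. In each of these genes, chosen after their values were seen, NCD was highest, both HFD libraries lowest and JQF in between. Dusp2, another phosphatase gene, rose, from 190 CPM in NCD to 523 and 472 CPM in HFD. The NF-kappaB genes Nfkb1 and Rel also fell, with log2 fold changes of -1.57 and -1.33.

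Interferon-stimulated genes formed the clearest group that rose. Of 28 tested, 15 were higher and 0 lower, with a median of 1.36, or 0.88 with length classes subtracted. Ifit1 (chr19:34640871-34650009, plus strand), which binds viral RNA lacking host caps, was at 24.6 CPM in NCD, 1429 and 641 CPM in HFD and 511 CPM in JQF (log2 fold change 5.21, SE 0.45, adjusted p = 2.15e-06, and 0.0847 with all members). It was found in 11.4%, 63.1%, 47.2% and 45.8% of the members. Rtp4 was at 8.80, 126, 85.3 and 63.6 CPM (log2 fold change 3.42), Isg15, a ubiquitin-like modifier, at 106, 444, 257 and 409 CPM (1.56), and Ly6c2, a surface antigen of activated T cells, at 146, 474, 370 and 212 CPM (1.36). In these genes, chosen after their values were seen, NCD was the lowest of the 4 libraries and HFD replicate 1 the highest. Ifit3 was at 2.20, 211, 85.3 and 41.7 CPM, but 52.9% of its UMIs in HFD replicate 2 came from 3 cells.

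Cytokine receptors moved in both directions. Of 19 tested, 4 rose and 5 fell. Il21r (chr7:125603429-125633570, plus strand), the receptor of a helper T cell cytokine, was at 974 CPM in NCD, 117 and 154 CPM in HFD and 246 CPM in JQF, and fell by 3.02 in HFD (SE 0.22, edgeR adjusted p = 3.41e-07, and 0.0726 with all members). Il12rb2, the signalling chain for IL-12, fell from 1327 CPM in NCD to 383 and 472 CPM in HFD (-1.81). Il7r, the receptor of a survival cytokine, rose from 283 to 705 and 639 CPM (1.08), and Il27ra from 35.2 to 115 and 105 CPM (1.47). The HFD pair lay on 1 side of NCD for all 4 genes, which were chosen among those called. In how many of all genes tested this holds was not counted.

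Cytokine genes went both ways, and the killing genes that passed were lower. Ifng was at 546 CPM in NCD, 371 and 380 CPM in HFD and 596 CPM in JQF, and fell by 0.71 in HFD (SE 0.20, adjusted p = 0.0210). Cd40lg, through which T cells license antigen-presenting cells, was at 348, 167, 232 and 170 CPM (-0.98). Tnf rose, from 81.8 CPM to 242 and 140 CPM (1.06). RNA outside cells held Tnf at 44.6 CPM in NCD and 223 and 198 CPM in HFD, and B cells at 9.78, 61.6 and 114 CPM, so that the free level moved the same way and in HFD replicate 2 lay above that of the members, and its part in the rise was not tested. Ltb, a lymphotoxin subunit, rose from 288 to 543 and 570 CPM (0.78). Of 15 cytokine genes 3 rose and 4 fell. Of 12 killing genes 0 rose and 4 fell, with a list median of 0.18, or -0.30 with length classes subtracted. Fasl, the ligand of a death receptor, was at 297 CPM in NCD, 126 and 137 CPM in HFD and 118 CPM in JQF (-1.35), and granzyme B (Gzmb) at 275, 87.6, 79.4 and 151 CPM (-1.89). Gzma was at 187, 48.2, 32.6 and 102 CPM, yet only 5.18 to 6.99% of all members held it in any library, and its adjusted p reached 0.384 over the alternatives. Perforin (Prf1), at 35.6, 38.8, 55.2 and 41.5 CPM, did not pass.

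Several factors and surface molecules of activated T cells were lower in HFD. Of 21 transcription factors 2 rose and 7 fell. Of all genes 6.67% rose and 11.8% fell, and 653 of the 2641 genes in the longest class fell. The part of length in the counts of this paragraph was not tested. Stat4, which carries the IL-12 signal, was at 1858 CPM in NCD, 558 and 658 CPM in HFD and 707 CPM in JQF (-1.78), and it spans 120 kb, in the longest class. Tbx21 was at 397, 210, 289 and 315 CPM (-0.84). Id2, an inhibitor of DNA-binding factors that innate-like lymphocytes need, rose from 371 to 1104 and 971 CPM (1.31), and Tcf7 rose from 40.9 to 102 and 71.1 CPM (0.92). Gata3, at 150, 170 and 184 CPM, had a log2 fold change of 0.06 (SE 0.20), which did not pass. Of 12 costimulatory genes 0 rose and 5 fell, among them Icos (716, 223 and 331 CPM in NCD and HFD) and the TNF receptor Tnfrsf1b (515, 109 and 124 CPM). Of 14 checkpoint genes 0 rose and 7 fell, among them the ectonucleotidase Entpd1 (371, 126 and 121 CPM). Cxcr3, a homing receptor, rose from 47.9 to 136 and 140 CPM.

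**Figure D4:**
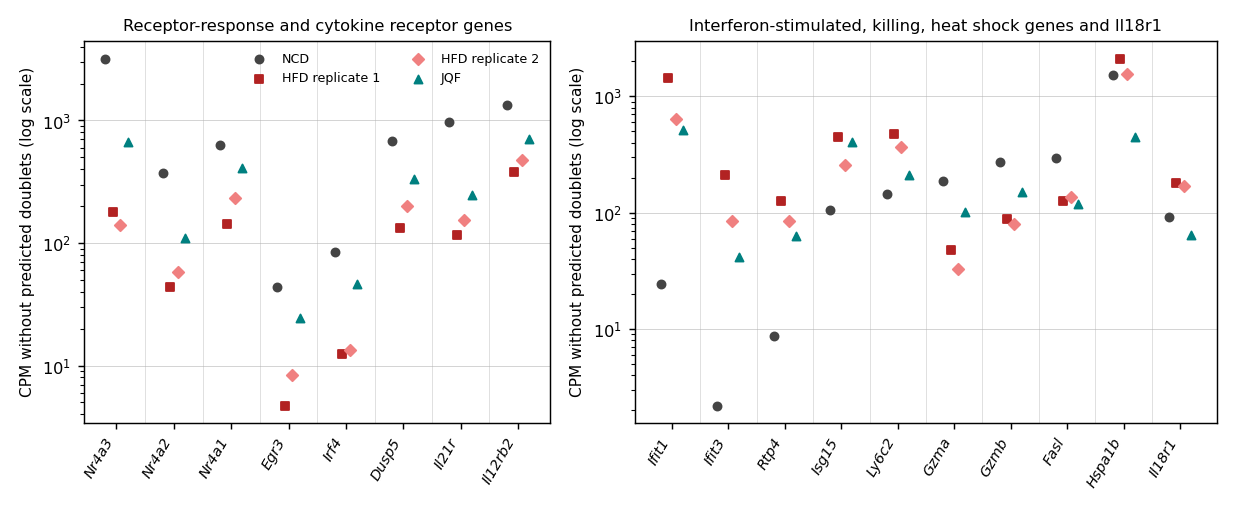
CPM without the predicted doublets in each library on log axes, for genes of receptor engagement and cytokine receptors (left) and interferon-stimulated, killing and heat shock genes and Il18r1 (right). Nr4a3 ran from 3190 CPM in NCD to 180 and 140 CPM in HFD and 665 CPM in JQF, and Ifit1 from 24.6 to 1429, 641 and 511 CPM.

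Metabolic and cell cycle genes were mostly higher where they passed, lipid genes lower. Of 74 genes of oxidative phosphorylation, 32 rose and 0 fell, with a median of 0.59, or 0.25 with length classes subtracted, and the called ones had log2 fold changes of 0.63 (Cox6b1) to 1.58 (Atp5k). Of 18 glycolytic genes 4 rose and 0 fell, and of 13 cell cycle genes 5 rose and 0 fell, but Stmn1, the one with the largest change, had 64.4% of its UMIs in HFD replicate 1 in 3 cells. Of 26 lipid genes 0 rose and 7 fell. Insig1, a brake on cholesterol synthesis that is itself induced by sterol depletion, was at 33.4 CPM in NCD, 9.4 and 7.52 CPM in HFD and 12 CPM in JQF (-2.13).

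The remaining lists held calls in both directions or few. NKT1 genes gave 2 higher and 7 lower of 15 (median -0.58, or -0.80 with length classes subtracted), most of them named above, and NKT2 genes 0 and 1 of 11 (median 0.08 either way). NKT17 genes gave 0 and 0 of 4, NK cell receptors 5 and 3 of 24, chemokines and their receptors 1 and 1 of 13, genes of residence and egress 2 and 4 of 18, and immediate early and heat shock genes 2 and 2 of 20. Genes of the alpha-beta receptor and its signalling partners, Trav11 among them, gave 2 and 1 of 10, and gamma-delta receptor genes 1 and 0 of 4.

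By the largest changes among abundant genes, the rule for named genes gave Ifit3b, Ifit3, Ifit2, Ifit1, Oasl1, Rtp4, Cxcl10, Rsad2, Ddit4, Stmn1, Ifit1bl1 and Cd74 for the rises, and most of these are induced by interferon. In 1 of the HFD libraries 50.8% of the UMIs of Ifit2 and 58.9% of those of Rsad2 came from 3 cells. For the falls it gave Ptprb, Frmd5, Pak1, Nr4a3, Slc16a10, Dock4, Sult2b1, Cyp51, Eprs, Homer1, Lyn and Jmy. Ptprb is an endothelial gene, and 72.7% of its UMIs in NCD came from 3 cells, as did 74.5% of those of Frmd5. The endothelial genes that stayed in the NCD members, at 144 CPM, move with such genes, and their part in the falls was not tested.

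The third comparison asked what differed between the JQF and HFD members. Without the predicted doublets Nr4a3 was at 665 CPM in JQF against 180 and 140 CPM in HFD, and the heat shock gene Hspa1b at 444 CPM against 2105 and 1547 CPM. With all members edgeR called 0 of 11785 genes (0%), with 478 at an unadjusted p below 0.05 and a smallest adjusted p of 0.996, and DESeq2 called 14. Without the predicted doublets 239 genes were higher in JQF (2.26% of 10569) and 52 lower (0.492%). The all-gene median was near 0, and the length classes differed little, from 0.05 to -0.08. Adjusted p-values for the genes below came to 0.996 or more with all members, and with predicted doublets kept, 90 genes were called after each cell was thinned and 279 with no filter on low counts. The change is also taken against the HFD libraries that the comparison with NCD uses, so the values of both comparisons are not independent.

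Genes of receptor engagement were higher in JQF, toward the level of NCD. Of 17 tested, 8 rose and 0 fell, with a median of 0.64. Receptor engagement was not measured here either, and the part of tissue handling was not tested. Nr4a3 rose by 2.10 on the log2 scale from HFD to JQF (SE 0.22, adjusted p = 6.32e-05), from 180 and 140 CPM to 665 CPM, still below the 3190 CPM of NCD. Egr1, an early growth response gene, was at 105 CPM in NCD, 103 and 71.1 CPM in HFD and 318 CPM in JQF (1.90, adjusted p = 6.32e-05), so that here NCD stood with HFD. Egr3 (2.00), Irf4 (1.92), Nr4a2 (1.20), Nr4a1 (1.17) and Dusp5 (1.05) passed at the levels given above. Junb, an immediate early gene, was at 2863 CPM in NCD, 1104 and 1731 CPM in HFD and 2953 CPM in JQF (1.10, adjusted p = 0.0370).

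Of the 10 heat shock genes in the list of immediate early and heat shock genes, 4 fell in JQF (Hspa1b, Hspa1a, Hsph1 and Dnajb1) and the other 6 did not pass, with log2 fold changes from -0.30 (Dnaja1) to 0.40 (Hspa8). Hspa1b (chr17:34956436-34959238, minus strand), an inducible HSP70, was at 1541 CPM in NCD, 2105 and 1547 CPM in HFD and 444 CPM in JQF, and fell by 1.99 in JQF (SE 0.26, edgeR adjusted p = 0.000412). Its near-identical neighbour Hspa1a was at 1059, 1006, 819 and 235 CPM (-1.90), and how reads were divided between the copies was not tested. Hsph1, a co-chaperone, was at 801, 907, 838 and 347 CPM (-1.28). JQF was the low library for all 3. Over the whole list 3 rose and 4 fell of 20.

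Of 19 cytokine receptors 1 rose and 2 fell, and of 12 killing genes 2 rose and 0 fell, where 2.26% of all genes rose and 0.492% fell. Il18r1 (chr1:40465552-40500854, plus strand), the receptor through which IL-18 acts on innate-like T cells, was at 91.5 CPM in NCD, 180 and 170 CPM in HFD and 63.8 CPM in JQF (-1.41, SE 0.19, adjusted p = 0.000543). Il21r rose by 0.92 (adjusted p = 0.0309). Il12rb2, at 707 CPM in JQF, had a log2 fold change of 0.78 (adjusted p = 0.0801), and Ifng one of 0.72 (adjusted p = 0.0692), and neither passed. Gzmb rose from 87.6 and 79.4 CPM to 151 CPM (0.91, adjusted p = 0.0134) and Gzma from 48.2 and 32.6 to 102 CPM (1.37, adjusted p = 0.00150), the latter in 5.45% of the JQF members.

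Interferon-stimulated genes were less uniform than against NCD. Of 28 tested, 0 rose and 3 fell (Ifit3b, Ifit3 and Ly6c2), with a median of -0.17. In 1 HFD library 45.2% of the UMIs of Ifit3b and 52.9% of those of Ifit3 came from 3 cells. Ly6c2 went from 474 and 370 CPM to 212 CPM (-0.94, adjusted p = 0.0186). Other genes that fell were the factor Lef1, from 408 and 383 CPM to 218 CPM (-0.81), the NK cell receptor Klrc2, from 168 and 171 CPM to 86.7 CPM (-0.91), Klra9, from 161 and 78.6 CPM to 36.7 CPM (-1.67), the ectonucleotidase Nt5e, from 130 and 69.4 CPM to 37.6 CPM (-1.38), and Cd200r1, from 54.7 and 35.9 CPM to 21.6 CPM (-1.04). Both HFD libraries lay above JQF in each, and in how many of all genes tested this holds was not counted.

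In the other lists, NKT1 genes gave 2 higher and 0 lower of 15, costimulatory genes 2 and 0 of 12, genes of residence and egress 2 and 0 of 18, lipid genes 2 and 0 of 26, checkpoint genes 0 and 2 of 14, NK cell receptors 0 and 2 of 24, transcription factors 1 and 1 of 21, and NKT17 genes and chemokines with their receptors 1 and 0 each. Oxidative phosphorylation, glycolysis, cell cycle, cytokine, NKT2 and receptor chain genes gave no call in either direction. The rule for named genes gave Il12b, Dmbt1, Clu, Spp1, H2-Aa, H2-Eb1, Cd74, Ttr, H2-Ab1, Cst3, Alcam and Cd83 for the rises, which are genes of dendritic cells, other antigen-presenting cells, hepatocytes or bile ducts for the most part. They moved with the dendritic cell markers, at 889 CPM in JQF against 86.4 and 180 CPM in HFD, and for the first 4 of them 63.5 to 91.8% of the UMIs came from 3 cells. For the falls the rule gave Ifit2, Ifit3b, Hspa1b, St6gal1, Hspa1a, Styk1, Ifit3, Klra9, Gm4258, Il18r1, Nt5e and Hsph1, and in 1 HFD library 50.8% of the UMIs of Ifit2 and 56.1% of those of Gm4258 came from 3 cells. Ccr7 rose from 4.11 and 8.36 CPM to 32.4 CPM in 3.31% of the JQF members. The part of other cells in these rises was not tested.

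The fourth comparison set the members beside CD4-like T cells and beside NK cells of the same livers. CD4-like T cells (776) held Cd4 and CD3 but no Zbtb16 and no effector gene, and NK-like cells (718) held Ncr1 and Klrb1c but no CD3, and came to only 43 in NCD. The CD4-like cells of NCD stood apart from those of the other libraries: Eomes was found in 45.3% of them against 0.855 to 1.83%, and the checkpoint gene Pdcd1 in 33.8% against 12.8 to 19.0%. The 8 NK cell genes, Eomes among them, summed to 236 CPM against 26.3 to 41.6 CPM. Eomes alone was at 200 CPM against 4.31 to 10.2 CPM, so the sum mostly repeats it. The gates chose these cells, so genes that vary with a gate gene differ in part by construction, and gate genes were left out. All members were used, with the library as a block over 4 libraries. Against CD4-like cells 569 of 9901 genes were higher (5.75%) and 474 lower (4.79%), 1043 in all, which came to 612 without HFD replicate 2 and 604 without JQF. Against NK-like cells 456 of 9848 were higher (4.63%) and 438 lower (4.45%), 894 in all, which came to 583 without HFD replicate 1, 528 without HFD replicate 2 and 495 without JQF.

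NK cell receptor genes were mostly higher in the members than in CD4-like cells. Of 20 NK cell receptor genes 15 were higher and 1 lower, with a median of 2.71 against 0.02 for all genes. Klre1 was at 78.0 CPM in NCD, 127 and 115 CPM in HFD and 91.8 CPM in JQF, and at 0.478 to 0.730 CPM in the CD4-like cells. Cxcr6, the receptor that holds these cells in the sinusoids, was at 233, 279, 285 and 287 CPM in the members and at 54.6, 145, 89.8 and 86.6 CPM in CD4-like cells (log2 fold change 1.63, SE 0.19, adjusted p = 0.00168, with up to 0.0112 over the alternatives). It was found in 84.3%, 77.9%, 82.4% and 86.2% of the members, 28.8 to 48.4% of the CD4-like cells and at most 1.72% of the B cells. T cells with an effector gene but no Zbtb16 UMI held Cxcr6 in 51.6%, 57.6%, 57.5% and 68.9%. Those with Zbtb16 but no effector UMI held it in 45%, 70.6%, 58.6% and 74.6%. Itga1, an integrin chain of resident lymphocytes, was at 413, 215, 227 and 239 CPM against 131, 67.1, 35.1 and 35.4 CPM (2.20, adjusted p = 0.000487).

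Genes of exit from tissue lay the other way. S1pr1, the receptor that draws lymphocytes into blood and lymph, was at 17.1, 13.7, 20.1 and 6.88 CPM in the members and at 119, 83.2, 132 and 121 CPM in CD4-like cells (-3.13, SE 0.28, adjusted p = 0.000539). Of 18 genes of residence and egress, 4 were higher (Rgs2, Cxcr6, Itga1 and Zfp683) and 7 lower, among them Ccr7 (-2.99) and Klf2 (-0.59). For Cxcr6, Itga1 and S1pr1 the 4 libraries of the members did not overlap those of the CD4-like cells. In how many of the 9901 genes tested this holds was not counted.

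Killing and NKT1 genes were mostly higher in the members. Of 11 killing genes 8 were higher and 1 (Gzmk, -3.22) lower, and of 15 NKT1 genes 11 were higher and 1 lower, both lists with a median of 1.66. Il12rb2 was at 1200, 347, 419 and 630 CPM against 159, 112, 85.5 and 149 CPM (2.28, adjusted p = 0.000639). T-bet itself, at 341, 184, 239 and 284 CPM against 128, 207, 121 and 153 CPM, had a log2 fold change of 0.82 and did not pass (adjusted p = 0.0785). Of 15 cytokine genes 3 were higher (Csf2, Tnfsf14 and Ifng) and 6 lower, among them Il10 (-4.42) and Tnfsf8, which encodes CD30 ligand and was at 15.4, 27.0, 27.9 and 24.0 CPM against 257, 335, 370 and 245 CPM (-3.62). Of 14 checkpoint genes 1 was higher and 5 lower (Pdcd1, Ctla4, Lag3, Tigit and Tox), and of 20 transcription factors 4 were higher, among them Id2 (1.06), and 5 lower, among them Tcf7 (-1.97). Slamf6, a SLAM receptor that takes part in the development of these cells, was lower (-2.51).

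Kcnq5, a voltage-gated potassium channel gene known from neurons, separated the classes further than most. It was at 2883 CPM in NCD, 2205 and 2407 CPM in HFD and 1406 CPM in JQF in the members, at 227, 184, 182 and 124 CPM in CD4-like cells and at 992, 486, 520 and 536 CPM in NK-like cells (3.66 against CD4-like cells, SE 0.10, adjusted p = 3.95e-06, with up to 0.000300 over the alternatives). The gene spans 564 kb on chr1:21398403-21961942, minus strand, and was named after its values were seen. Gamma-delta receptor constant genes were higher too, 4 of 4, with Tcrg-C2 at 38.5, 67.2, 61.6 and 52.1 CPM against 0, 3.73, 2.19 and 0.478 CPM.

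Against NK-like cells the members were higher for T cell genes and lower for most killing genes. All 6 NK markers tested and 8 of 11 killing genes were lower, and 13 of 22 NK cell receptors were lower and 3 higher. Gzma was at 149, 39.3, 31.1 and 107 CPM in the members and at 775, 1228, 2059 and 2345 CPM in NK-like cells (-4.35, SE 0.54, adjusted p = 0.00298). Klra4, a Ly49 receptor gene, was at 0 to 0.473 CPM against 32.7 to 283 CPM. In the other direction 8 of 9 alpha-beta receptor genes and 8 of 9 NKT2 genes were higher. Themis, a T cell signalling gene, was at 652, 411, 378 and 398 CPM against 0.654 to 2.73 CPM, and Cd5 at 78.4 to 107 CPM was at 0 in the NK-like cells of every library. Of 28 interferon-stimulated genes 8 were higher and 0 lower. Cxcr6 was higher here as well (1.44, adjusted p = 0.000708). The members lay between the CD4-like and the NK-like cells for Gzma.

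**Figure D5:**
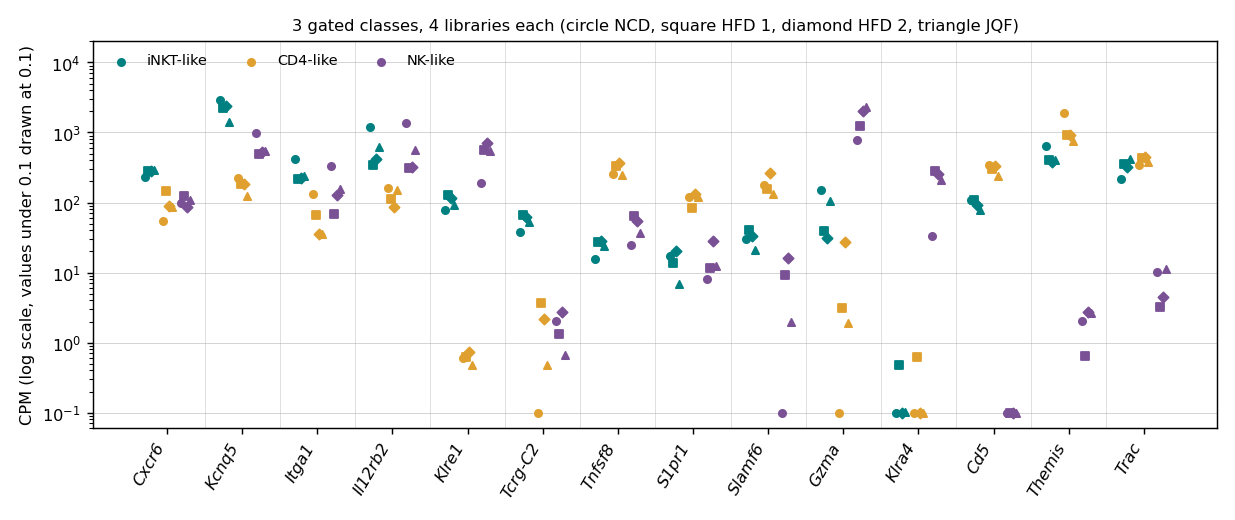
CPM of 14 genes in members, CD4-like and NK-like cells, with the 4 libraries of each class as separate symbols (log axis, values under 0.1 drawn at 0.1). Cxcr6, Itga1 and Kcnq5 were higher in the members than in CD4-like cells in every library, S1pr1 and Tnfsf8 lower, and Gzma was highest in NK-like cells.

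The last comparison asked whether the change from NCD to HFD in the members differed from that in CD4-like cells. It did for 74 of 11805 genes (0.627%), and 10 (0.0847%) differed for JQF against HFD, in a fit with 1 residual degree of freedom. With no library block, 0 genes differed in both, with 580 and 200 at an unadjusted p below 0.05. Most of the genes above were therefore not shown to change in these cells more than in CD4-like cells. Nr4a3 fell more in the members: it was at 958, 147, 159 and 420 CPM in CD4-like cells, and the difference of the log2 changes was -1.59 (adjusted p = 0.0352). Ifit1 was at 82.5, 803, 356 and 382 CPM in CD4-like cells, a difference of 1.99 (adjusted p = 0.00597). In CD4-like cells, too, NCD was the high library for Nr4a3 and the low one for Ifit1. The NCD side of these differences rests on the CD4-like cells that stood apart by Eomes, and the part of that in the differences was not tested.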

How the data were processed

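The authors ran Cell Ranger 6.0.1 on the mm10 genome and Seurat 4.0.3, per the labels, and deposited UMI counts per gene and barcode for 4 10x libraries of 3′ RNA (V3.1 kit). The file headers name Cell Ranger 7.0.0 (filtered) and 4 (raw), which differ from the 6.0.1 of the labels. Whether introns were counted is not given in the sources used here. The filtered matrices were used for cells and the raw ones for RNA outside cells. The study tested single cells. Here UMIs were summed per library and class and tested with edgeR 4.0.16 in R 4.3.3 (quasi-likelihood, filterByExpr, TMM, Benjamini-Hochberg over all genes tested, threshold 0.05), with DESeq2 1.42.0 as an alternative. SE is the log2 fold change over the root of F. Between groups the fit has 1 residual degree of freedom, from the HFD pair.

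Gates were chosen on measured values, and the members and gene lists were chosen with earlier results of these data known. Doublets stayed in the main fits and in the shares. The gene values and calls shown for HFD against NCD and JQF against HFD are from the alternative without predicted doublets unless said otherwise. Scrublet scores (scanpy 1.11.5) were used in an alternative that removed the highest 0.8% per 1000 barcodes. Shares were also computed after thinning to 2500 UMIs, leaving out shallower cells (659, 457, 1014 and 406 kept cells). Members held 1542388 to 19333716 UMIs per library. Named genes had an adjusted p below the threshold, at least 50 CPM in a group and both HFD libraries on the same side, and the 12 largest changes per direction were taken, with listed genes beside them. Sequences were read from the GRCm38 reference. The fit of HFD against NCD with all members was checked on simulated counts with the same spread for every gene. The other fits, that without predicted doublets included, were not checked in this way. Adjusted p-values measure the spread between libraries only.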

Additional observations from a re-analysis of the deposited data

Results flagged for a closer look

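The results listed here are genes whose change between groups differed between the members and CD4-like T cells by the test of the difference itself, in edgeR with the library as a block. With no library block none passed, and the fit has 1 residual degree of freedom. All values are of all members, predicted doublets included, unless said otherwise. The CD4-like cells of NCD, on which every difference for HFD against NCD rests, stood apart from those of the other libraries, with Eomes in 45.3% of them against 0.855 to 1.83%. The 8 NK cell genes summed to 236 CPM against 26.3 to 41.6 CPM, but Eomes is among them and alone was at 200 CPM in NCD. The part of this in the differences was not tested.

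For HFD against NCD, 74 of 11805 genes (0.627%) had such a difference, 31 with a higher and 43 with a lower change in the members. Of the listed surface and signalling genes of NK cells, Klrk1, Cd226, Tyrobp and Fcer1g were flagged, and the others were not. Their change from NCD to HFD was lower in the members than in CD4-like cells. In CD4-like cells the 8 monocyte and neutrophil genes summed to 54.0 CPM in NCD and to 493 and 592 CPM in HFD. The 8 macrophage genes there summed to 11.3 CPM in NCD and to 219 and 686 CPM in HFD. In the members of NCD and HFD the same lists summed to 198, 538 and 2067 CPM and to 38.1, 20.8 and 686 CPM. The part of these markers in the differences was not tested. Klrk1, the receptor NKG2D, was at 511 CPM in the NCD members, 372 and 359 CPM in HFD and 256 CPM in JQF, and in CD4-like cells at 21.4, 75.7, 116 and 82.8 CPM. The difference between the log2 changes of Klrk1 was -2.78 (adjusted p = 0.00533). For Cd226, an activating receptor, it was -2.19 (adjusted p = 0.00244), for the adaptor Tyrobp -4.22 (adjusted p = 0.00244) and for the adaptor Fcer1g -1.97 (adjusted p = 0.0288). The members' own log2 fold change from NCD to HFD was 1.62 for Tyrobp and 1.24 for Fcer1g, and without predicted doublets -0.27 and -0.35, none of which passed, while the difference stayed below 0, at -4.36 and -4.49 (adjusted p = 0.00721 and 0.00702). The costimulator Icos had a difference of -1.30 (adjusted p = 0.0439).

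The chemokine genes Ccl5 and Ccl4 lay the other way, 2 of 15 tested genes of chemokines and their receptors, and the other 13 did not pass. Ccl5 was at 1756, 2600, 2661 and 3225 CPM in the members and at 6610, 2488, 1580 and 1559 CPM in CD4-like cells, a difference of 2.16 (adjusted p = 0.00244). NCD was the lowest library in the members and the highest in CD4-like cells. Ccl4 had a difference of 2.16 as well (adjusted p = 0.00244) and Stmn1, a gene of dividing cells, one of 2.01 (adjusted p = 0.0376).

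Ifit1 and Iigp1 were the only interferon-stimulated genes flagged, in opposite directions with all members. Ifit1 had a difference of 1.99 (adjusted p = 0.00597), while Iigp1, an interferon-gamma-induced GTPase, was at 325, 18.5, 26.6 and 28.3 CPM in the members against 268, 55.3, 63.5 and 40.7 CPM, a difference of -1.86 (adjusted p = 0.0149). Without predicted doublets Iigp1 was at 18.0 CPM in the NCD members, its log2 fold change in the members went from -3.98 to -0.22 and the difference to -0.15 (adjusted p = 0.933). Nr4a3 had a difference of -1.59 (adjusted p = 0.0352).

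In 3 genes 1 side of the comparison held next to no UMIs, so the fitted value is no measure of size. Gzma had a fitted difference of -10.87 (adjusted p = 0.0388) with 0 CPM in the CD4-like cells of NCD. For JQF against HFD, Areg, an epidermal growth factor ligand, had 8.25 (adjusted p = 0.0472) and Ccl1, a chemokine, -10.10 (adjusted p = 0.0170). Neither passed without predicted doublets, with adjusted p-values of 0.0503 for Areg and 0.469 for Ccl1.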

How the results depend on the processing

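No paired analysis was possible because the groups share fewer than 2 replicate numbers, NCD and JQF being 1 library each. The share of T cells in HFD against NCD passed with at most 10% mitochondrial UMIs (-1.51), with 2 effector UMIs or more (-1.54) and by DESeq2 (-1.51), at adjusted p-values of 0.0441, 0.0422 and 7.68e-08, and the share of all cells in JQF against HFD passed by DESeq2 (3.00, adjusted p = 9.62e-06). Genes called for HFD against NCD, 0 with all members, came to 667 with each cell thinned, 1956 without predicted doublets, 31 without members holding Trdc, 139 with at most 10% mitochondrial UMIs, 210 with DESeq2 size factors, 306 with no scaling, 2471 with no filter on low counts and 563 by DESeq2. For JQF against HFD they came to 90 thinned, 291 without predicted doublets, 279 with no filter and 14 by DESeq2. Both stayed at 0 with 2 Zbtb16 UMIs or more and with only the groups compared. The share of HFD against NCD calls that were higher was 36.0% without predicted doublets, 17.6% with DESeq2 size factors and 38.9% with no scaling, which moved the median of all genes to 0.16.

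Against CD4-like cells the calls came to 1898 with no filter and to 604 to 1045 with 1 library left out. Against NK-like cells they came to 1595 with no filter, 1444 without predicted doublets and 495 to 1237 with 1 library left out. Genes whose change differed from CD4-like cells came, for HFD against NCD, to 117 without predicted doublets, 318 with no filter and 0 with no library block, and for JQF against HFD to 6 thinned, 22 without predicted doublets, 102 with no filter and 0 with no library block. The removal of predicted doublets in the class comparisons, the subtraction of length class medians and the count of effector cells without Zbtb16 were chosen after seeing the data. Of the genes called and named in the group comparisons, Cst3 in JQF against HFD turned to -0.31 with each cell thinned and Ttr to -0.36 without HFD replicate 1, and no other changed sign under the alternatives run on them. Without HFD replicate 1 the log2 fold change of 13 of 75 genes for HFD against NCD and of 13 of 56 for JQF against HFD moved by more than the spread of the HFD pair, and without HFD replicate 2 that of 6 and 5. The causes of these moves were not tested. With 193 to 229 members in NCD and HFD, genes under a few CPM rest on single UMIs.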
